A study of Mus musculus with 21 samples.

Results

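Transcript levels in sorted cortical nuclei of Scn2a+/- mice treated by CRISPR activation were compared with those of wild-type mice, to ask what stays different after the treatment. The comparison sets 3 libraries from injected heterozygous mice (Het CRISPRa) against 3 from wild-type mice (WT), which are 6 of the 21 samples of the series, chosen by the titles, genotypes and treatments in the labels. A further 3 libraries from Scn2a+/- mice with no listed treatment (Het) entered the model as the other mouse group. Het CRISPRa mice carried 1 disrupted Scn2a copy, were labelled as injected with AAV-sadCas9-VP64 and rAAV-Scn2a-sgRNA, and were sampled 4 weeks after the injection (500 nL of virus, medial prefrontal cortex). WT mice carried both Scn2a copies. All 3 groups were on a C57BL/6J background, and their nuclei came from 200 mg of cortex, were sorted for NeuN and were sequenced as polyA RNA. The labels do not say whether WT or Het mice received a control virus, which promoter drives the activator, how much of the sampled cortex the injection reached, or whether a library holds 1 animal. Age and sex are not given. The WT and Het CRISPRa groups thus differ in genotype and in injection together, and the contributions of these cannot be told apart in this comparison.

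Scn2a encodes Nav1.2, a voltage-gated sodium channel of excitatory neurons that sits at the axon initial segment and in dendrites, and loss of a copy is a known cause of autism and intellectual disability. In CRISPR activation, a Cas9 that can no longer cut (here sadCas9, from Staphylococcus aureus) is fused to the VP64 activation domain, and a guide RNA directs it to a promoter, so that the remaining intact copy of a gene is transcribed more. NeuN, the protein product of Rbfox3, marks neuronal nuclei, and RNA from nuclei is richer in unspliced and recently made transcripts than RNA from whole cells. Immediate early genes such as Fos, Egr1 and Arc are transcribed within minutes of synaptic activity through calcium and MAP kinase signalling, and are widely read as a record of recent neuronal firing.

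The promoter windows of the targeted gene and of 3 immediate early genes that take part in the main results are shown here, taken from RefSeq on build GRCm38.p6 as the 250 bases before an annotated transcription start. The 2 Scn2a windows are chr2:65620519-65620768 and chr2:65668436-65668685 (both + strand), and their capitals mark GAAT or GAGT or GGAT or GGGT on either strand, the fixed letters of the motif (PAM) that S. aureus Cas9 needs beside a target. These letters occur 7 and 8 times in the 2 windows and at least once in 99.7% of the 32851 windows of this length, so they only show where a guide could lie. The guide used is not given in the sources used here.
Scn2a window 1: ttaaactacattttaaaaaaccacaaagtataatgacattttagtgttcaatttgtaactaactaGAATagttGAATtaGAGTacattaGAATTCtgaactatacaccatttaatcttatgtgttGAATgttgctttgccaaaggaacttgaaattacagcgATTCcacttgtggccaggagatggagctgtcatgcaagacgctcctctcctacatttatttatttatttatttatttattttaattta
Scn2a window 2: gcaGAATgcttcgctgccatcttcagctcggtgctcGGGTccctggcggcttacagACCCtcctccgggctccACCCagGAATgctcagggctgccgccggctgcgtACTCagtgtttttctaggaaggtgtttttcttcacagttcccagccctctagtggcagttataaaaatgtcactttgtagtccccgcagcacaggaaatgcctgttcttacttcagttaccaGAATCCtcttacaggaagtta
The windows of Fos (chr12:85473640-85473889, + strand), Dusp1 (chr17:26508473-26508722, - strand) and Egr4 (chr6:85513590-85513839, - strand) are written in the direction of the gene, and capitals mark TGACGT on either strand, the core of the element bound by CREB (overlapping matches on both strands merge into TGACGTCA).
Fos: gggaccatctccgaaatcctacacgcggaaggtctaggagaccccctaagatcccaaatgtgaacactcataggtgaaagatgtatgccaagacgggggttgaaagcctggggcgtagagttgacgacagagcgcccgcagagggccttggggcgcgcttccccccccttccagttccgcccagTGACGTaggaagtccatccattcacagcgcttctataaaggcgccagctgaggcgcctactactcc
Dusp1: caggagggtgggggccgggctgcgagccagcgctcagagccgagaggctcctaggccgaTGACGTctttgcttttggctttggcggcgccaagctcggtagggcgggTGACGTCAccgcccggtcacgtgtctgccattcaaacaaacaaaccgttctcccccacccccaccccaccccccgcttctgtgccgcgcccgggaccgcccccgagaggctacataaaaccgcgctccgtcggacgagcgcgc
Egr4: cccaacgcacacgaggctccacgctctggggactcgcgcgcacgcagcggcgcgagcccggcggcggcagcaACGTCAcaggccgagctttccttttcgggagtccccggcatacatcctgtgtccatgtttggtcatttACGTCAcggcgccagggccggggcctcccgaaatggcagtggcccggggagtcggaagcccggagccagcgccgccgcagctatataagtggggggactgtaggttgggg
TGACGT was found in 2125 of the 32851 windows (6.47%) and in 10 of the 22 immediate early genes with an entry (28 listed). The immediate early genes are counted by gene, where a match in any window of the gene counts, so these shares are in unlike units. The serum response element core known as the CArG box was found in 482 windows (1.47%) and in 1 of the 22, Egr2. A match is a description of the letters only, and these motifs were picked with the list already known. Egr1, Arc and Ier2 are not among the 22, and no window is shown for them. The 3 immediate early gene windows shown all hold TGACGT. Dusp6 is among the 22 and also lay below WT in all 3 Het CRISPRa libraries. Its window has neither motif and is not shown.

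The 6 libraries held an estimated 15.5 to 19.7 M reads (M is 1e+06), so that 1 read is worth 0.0507 to 0.0643 counts per M reads (CPM). The NeuN gene Rbfox3 was at 316, 282 and 267 CPM in WT and 279, 260.3 and 279 CPM in Het CRISPRa, and the vesicular glutamate transporter gene Slc17a7 of excitatory neurons was at 895, 1001 and 935 CPM in WT and 935, 1066 and 1064 CPM in Het CRISPRa. Some markers of other cells were low (Gfap and Aqp4 of astrocytes at most 0.919 and 1.67 CPM, Cldn5 of vessels at most 0.279 CPM). Others were not, and the listed astrocyte markers summed to 346 to 373 CPM in the 6 libraries. Markers of oligodendrocytes summed to 104 to 128 CPM and those of their precursors to 123 to 182 CPM. Striatal markers stood out in WT library 3, where the 20 genes found summed to 1657 CPM against 725 and 782 in the other WT libraries and 994, 823 and 1205 in Het CRISPRa. WT library 3 and Het library 1 lay at opposite ends of the first principal component of the 9 libraries (33.9% of the variance), and Het CRISPRa library 3 had values above 0 for fewer features than the other 5 libraries of the comparison (26118 against 27809 to 28272), as did the 3 Het libraries (25410 to 25801). Many results that change without such a library are given with and without it, though not those of every list.

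Both transgene transcripts were found in the 3 injected libraries and listed at 0 in all WT and Het libraries, as the labels would have it. The sadCas9-VP64 transcript was at 7.12, 4.09 and 4.4 CPM (124, 66 and 79 reads) and the mCherry-puromycin transcript of the vector at 1.84, 1.61 and 1.45 CPM (32, 26 and 26 reads) in Het CRISPRa libraries 1 to 3. Library 1 was the highest for both.

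Scn2a did not differ detectably between Het CRISPRa and WT nuclei. It was at 229.5, 255 and 266 CPM in the WT libraries and at 258, 291 and 265 CPM in the Het CRISPRa libraries, with 3848 to 5041 reads behind each value. The groups overlapped, since WT library 3 lay above Het CRISPRa libraries 1 and 3. The means were 250.3 ± 18.8 and 271 ± 17.7 CPM (SD, n = 3 each; exact two-sided permutation p = 0.3, where 3 against 3 cannot give less than 0.1), a ratio of 1.08. The difference of log2(CPM + 0.5), the scale of all differences below, was 0.12 ± 0.11 (SE; 95% confidence interval -0.11 to 0.35), and it did not pass limma's test with Benjamini-Hochberg adjustment (adjusted p = 1.0). Without WT library 3 the 3 Het CRISPRa values of Scn2a all lay above WT (0.16), again short of the adjusted threshold. With all libraries, the interval excludes a 2-fold difference in either direction. The Het libraries were at 203, 226 and 260.3 CPM, and the Het minus WT and Het CRISPRa minus Het differences, which share their libraries with this comparison, were -0.13 ± 0.11 and 0.25 ± 0.11. Gene-level values do not separate transcripts of the intact copy from those of the disrupted one.

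**Figure D1:**
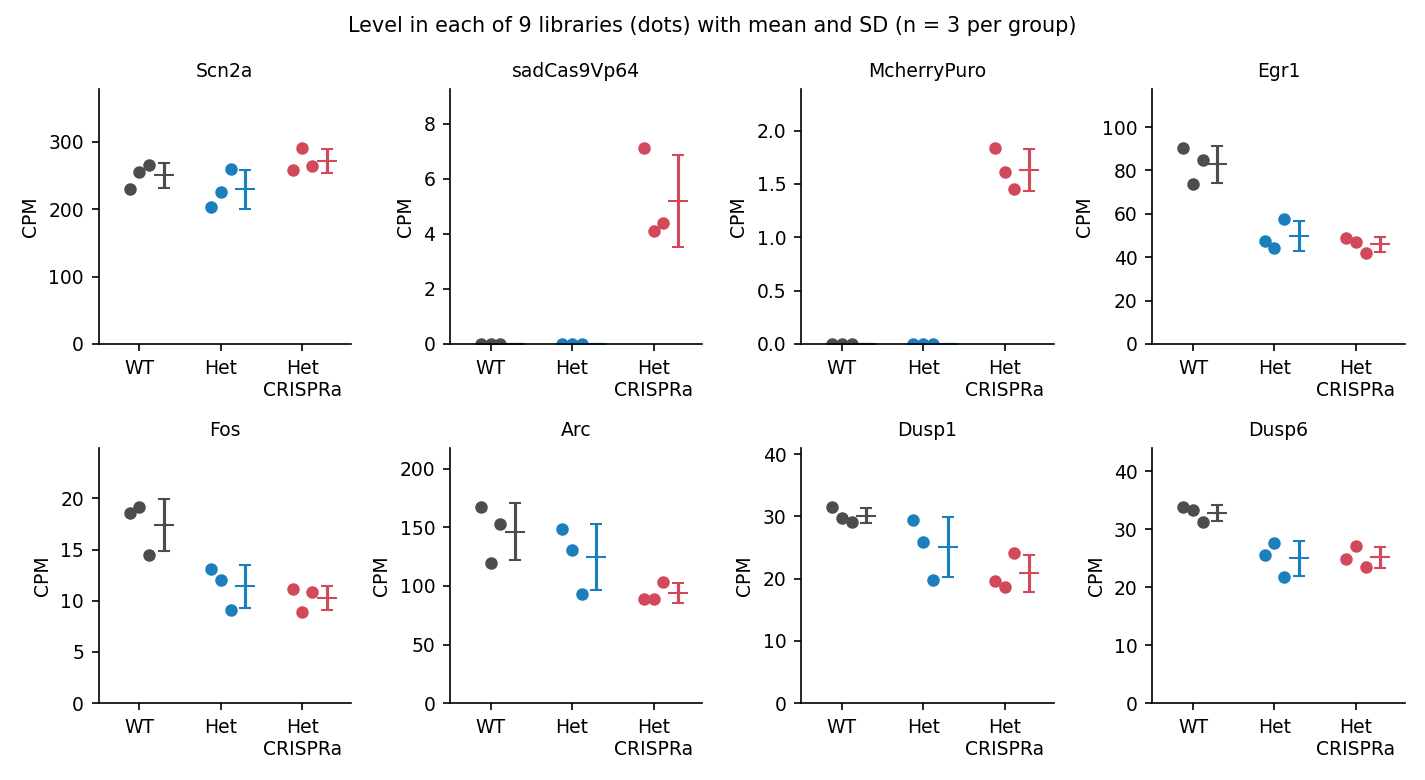
Level in CPM (vertical axes, from 0) of Scn2a, the 2 transgene transcripts and 5 immediate early genes in each of the 9 libraries (dots), with the mean and SD (n = 3) beside each group. Scn2a overlaps between WT and Het CRISPRa, the transgenes are above 0 only in Het CRISPRa, and Egr1, Fos, Arc, Dusp1 and Dusp6 are lower in all 3 Het CRISPRa libraries than in all 3 WT libraries.

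Across the transcriptome, 1 of 18967 genes tested (0.00527%) passed limma's test at an adjusted p under 0.05, the predicted gene Gm3020, which rose in Het CRISPRa. The adjusted p was 0.176 for Egr1 and 1.0 for each of the other 18965 genes. At an unadjusted p under 0.05 there were 335 genes (1.77%), 82 higher (0.432%) and 253 lower (1.33%). The share of 1.77% is below the 0.05 that this threshold would give on average if no gene differed. Scaling by the median of ratios gave 104 higher with 218 lower, and scaling by quantiles gave 144 higher with 198 lower. The 3 Het CRISPRa libraries lay above all 3 WT libraries in 508 genes (2.68%) and below all 3 in 845 (4.46%), which makes 7.13% of genes with separate groups. For a gene that does not differ, separate groups arise with a probability of 0.1, so these counts are not counts of changed genes. Values above 0 made up 45.3% and values below 0 made up 54.7%, with a median of -0.02 on the log2 scale. With 1 of the 6 libraries left out, the genes below WT in every remaining library made up 7.3% (without WT library 2) to 15.5% (without WT library 3) of all genes and those above it 5.26 to 11.9%. Without Het CRISPRa library 3 the genes at an unadjusted p under 0.05 were 112 higher and 142 lower, and without WT library 3 they were 222 higher and 484 lower. Without WT library 2 they numbered 194 in all. The libraries of a group may share technical handling, and the p-values measure only the spread between these samples.

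**Figure D2:**
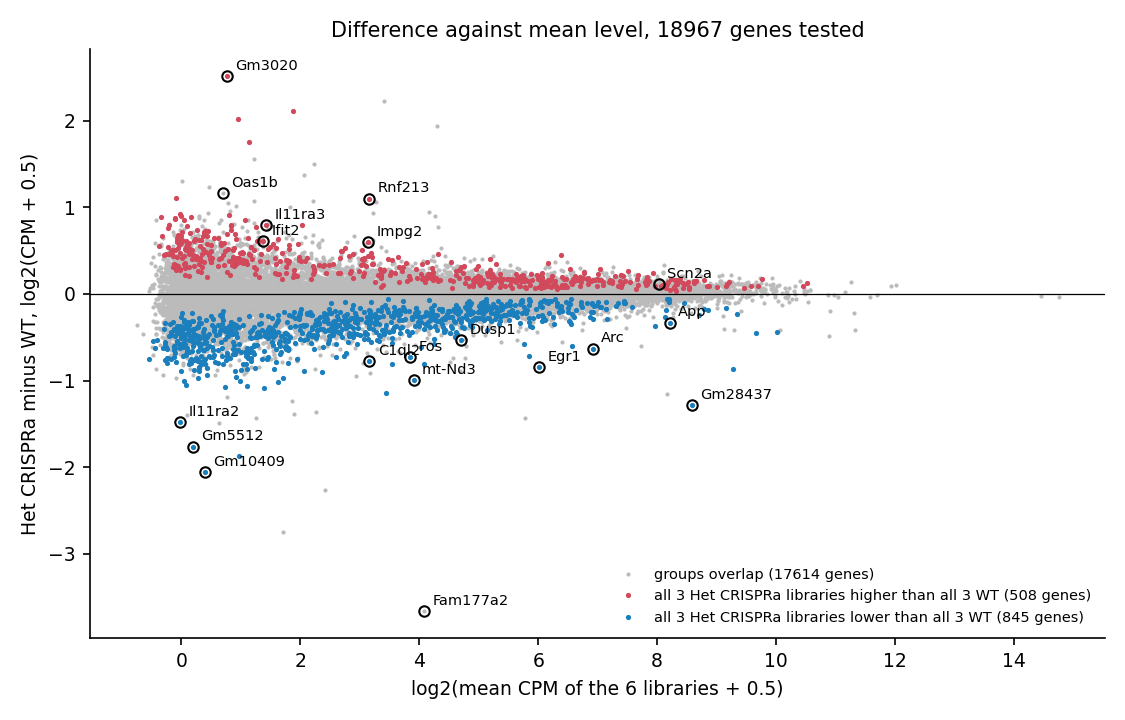
Difference between Het CRISPRa and WT in log2(CPM + 0.5) (vertical axis) against the log2 mean level of the 6 libraries (horizontal axis) for the 18967 genes tested. Red and blue points are the 508 and 845 genes whose 3 Het CRISPRa libraries all lie above or below the WT libraries, and circles mark named genes.

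In the authors' deposited DESeq2 table of this comparison, 8 of 24805 features passed an adjusted p under 0.05 once the transgenes are left out (0.0323%), 1 higher and 7 lower. The higher feature of the authors' deposited table was Gm3020, and the lower ones were Egr1, Arc, Gm10409, Gm28437, Gm28661, Gm5512 and Il11ra2. Gm3020 was the feature called both there and by limma. The genes in this set with known neuronal roles were Egr1, a zinc finger transcription factor, and Arc, a cytoskeletal protein that controls AMPA receptor traffic at synapses. The other 6 have transcripts that share most or all of their sequence with another gene, so that the level of each depends on how shared reads were divided.

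Gm3020 was listed at 0 in all WT and Het libraries and was at 3.18, 1.98 and 2.07 CPM in Het CRISPRa (fitted difference 2.52 ± 0.27, adjusted p = 0.0121 by limma, no bound since the WT libraries are at 0). Of its 50-base stretches, 99.7% also occur in the transcripts of Gm10409, and 104 other genes share some of them (annotation GENCODE M21 on GRCm38). Gm10409 gave the opposite picture, at 1.12, 2.04 and 1.71 CPM in WT, 1.22, 1.38 and 5.01 CPM in Het and 0 in the 3 Het CRISPRa libraries. The pair summed to 1.12, 2.04 and 1.71 CPM in WT and 3.18, 1.98 and 2.07 CPM in Het CRISPRa, with Het CRISPRa library 2 below WT library 2. With the pair summed as 1 feature, a step added after the values were seen, its difference was 0.46 ± 0.40 (SE; limma adjusted p = 1.0), and 0 of 18966 genes passed (332 at an unadjusted p under 0.05).

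Il11ra2, a copy of the interleukin 11 receptor gene, was at 1.02, 1.54 and 0.375 CPM in WT and listed at 0 in the 3 Het CRISPRa libraries. All of its 50-base stretches occur in Il11ra3, which was at 1.78, 1.98 and 0.778 CPM in WT and 2.75, 2.95 and 2.88 CPM in Het CRISPRa. Their sums were 2.8, 3.51 and 1.15 CPM and 2.75, 2.95 and 2.88 CPM (exact permutation p = 0.8), with the WT libraries on both sides of the Het CRISPRa ones. The largest fitted difference of any gene named here belonged to Fam177a2 (-3.66 ± 1.37), at 25.3, 29.5 and 17.4 CPM in WT and 26.7, 0 and 0 CPM in Het CRISPRa, and its twin Fam177a was at 0, 1.72 and 11.3 CPM in WT and 1.98, 24.2 and 21.5 CPM in Het CRISPRa. All 50-base stretches of Fam177a2 occur in Fam177a, and the sums of the pair were 25.3, 31.3 and 28.7 CPM in WT and 28.7, 24.2 and 21.5 CPM in Het CRISPRa, which overlap. This pair was picked after its values were seen. Gm5512 shares 79.5% of its stretches with Rmnd1, and was at 1.96, 1.24 and 0.643 CPM in WT and listed at 0 in Het CRISPRa and in Het libraries 2 and 3. Their sums were 155, 139.6 and 116 CPM in WT and 128, 126 and 113 CPM in Het CRISPRa, which overlap (exact permutation p = 0.3).

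Gm28437 and Gm28661 are nuclear copies of mitochondrial genes, and all of their 50-base stretches occur in mt-Co3 and mt-Co2. Gm28437 was at 514, 722 and 409 CPM in WT and 182, 258 and 224 CPM in Het CRISPRa, and mt-Co3 at 691, 642 and 486 CPM in WT and 591, 605 and 563 CPM in Het CRISPRa. The sum of the pair was 1205, 1364 and 895 CPM in WT and 773, 863 and 787 CPM in Het CRISPRa, with no overlap (exact permutation p = 0.1, the smallest possible). The sum of Gm28661 and mt-Co2 was 1329.7, 1512 and 962 CPM in WT and 856, 910.0 and 919 CPM in Het CRISPRa, again without overlap (exact permutation p = 0.1). The sum of Gm29216 and mt-Co1 was 3106, 3692 and 2314 CPM in WT and 2057, 2260.2 and 2386 CPM in Het CRISPRa, which overlap (exact permutation p = 0.2). These sums belong with the mitochondrial transcripts described further on. By contrast, Egr1, Fos, Arc and Dusp1 have no 50-base stretch in common with another annotated gene.

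**Figure D3:**
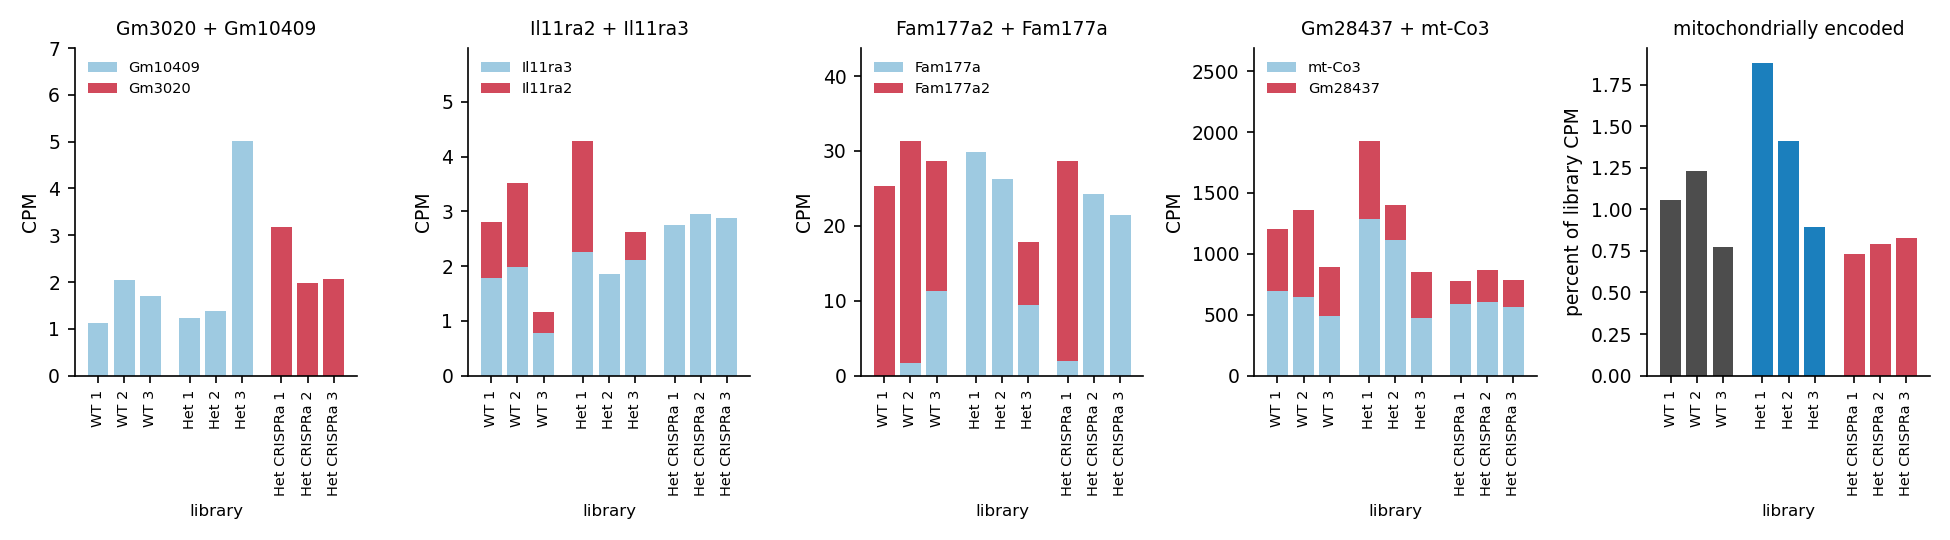
Stacked levels in CPM of 4 pairs of near-identical features in each of the 9 libraries, and (right) the percent of each library's CPM in mitochondrially encoded transcripts. Gm3020 is above 0 only in Het CRISPRa and Gm10409 only in WT and Het, their sum overlaps between WT and Het CRISPRa, and the mitochondrial share of Het CRISPRa lies between 0.733 and 0.83%.

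Many immediate early genes lay below WT in all 3 Het CRISPRa libraries. Of 27 tested (28 listed), 0 passed limma's adjusted test, 8 lay lower at an unadjusted p under 0.05 (1.33% of all genes did) and 0 higher. All 3 Het CRISPRa libraries lay below all 3 WT libraries in 11 of the 27 (40.7%, beside 4.46% of all genes) and above them in 1 (3.7%, beside 2.68%). The median difference was -0.19, beside -0.02 over all genes, with 20 values below 0 and 7 above. Leaving out 1 of the 6 libraries, which makes separate groups more frequent by construction, gave 11 to 17 members below WT (17 without Het CRISPRa library 3, beside 8.11% of all genes, and 11 without WT library 3, beside 15.5%) and a median between -0.27 and -0.16. The Het minus WT median of the list was -0.06. The 28 listed genes summed to 1374 to 1468 CPM in WT and to 1163, 1193 and 1429 CPM in Het CRISPRa, with library 3 inside the WT range.

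Egr1 was at 90.4, 73.5 and 84.7 CPM in WT and 48.9, 46.9 and 41.98 CPM in Het CRISPRa. The highest Het CRISPRa library was below the lowest WT library by more than the range within either group. The ratio of the means was 0.554 (45.9 ± 3.55 against 82.9 ± 8.6 CPM, SD, n = 3 each), and the difference of -0.84 ± 0.13 (SE) had the second smallest limma p of all genes (unadjusted 1.9e-05, adjusted p = 0.176). In the authors' deposited table it was -0.83 ± 0.13 (SE) with an adjusted p of 8.23e-07. Libraries of Het mice, which have no listed treatment, were at 47.7, 44.4 and 57.5 CPM. The Het minus WT difference was -0.73 ± 0.13 and the Het CRISPRa minus Het difference was -0.11 ± 0.13, which again share their libraries with this comparison. The Het libraries therefore also lay below every WT library, and they overlapped Het CRISPRa.

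Fos, the transcription factor gene that pairs with Jun in AP-1, was at 18.6, 19.2 and 14.5 CPM in WT and 11.1, 8.93 and 10.8 CPM in Het CRISPRa (-0.73 ± 0.18). Het libraries were at 13.1, 11.99 and 9.1 CPM, so both heterozygous groups lay below every WT library. Egr4, another zinc finger factor of the Egr family, was at 10.9, 9.14 and 10.9 CPM in WT and 5.86, 6.59 and 8.19 CPM in Het CRISPRa (-0.56 ± 0.18), and Het at 7.87, 7.87 and 9.02 CPM. For Egr2, which acts in the same family, the WT values were 5.96, 5.02 and 4.7 and the Het CRISPRa values 3.45, 2.54 and 3.57 CPM (-0.64 ± 0.29). These 4 transcription factor genes thus had separate WT and Het CRISPRa groups, while Egr3 overlapped.

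Arc was at 167, 119 and 153 CPM in WT and 88.99, 88.7 and 103 CPM in Het CRISPRa, a ratio of 0.64 and a difference of -0.63 ± 0.17. In the authors' deposited table it was -0.62 ± 0.14 (SE, adjusted p = 0.0434), and it did not pass limma (adjusted p = 1.0). The Het libraries were at 149, 131 and 93.5 CPM, a range that spans from the WT values to those of Het CRISPRa.

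The 2 phosphatase genes that end MAP kinase signals after activity were both separate. Dusp1 was at 31.5, 29.7 and 29.1 CPM in WT, 29.3, 25.9 and 19.8 CPM in Het and 19.6, 18.7 and 24.2 CPM in Het CRISPRa (-0.53 ± 0.16). Dusp6, which acts on ERK, was at 33.8, 33.4 and 31.2 CPM in WT, 25.6, 27.6 and 21.8 CPM in Het and 24.9, 27.1 and 23.5 CPM in Het CRISPRa (-0.38 ± 0.13). For Dusp6 the Het libraries also lay below all WT libraries, and for Dusp1 Het library 1 was level with the WT range.

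Ier2 (5.25, 5.02 and 4.25 CPM in WT against 3.1, 3.41 and 3.4 CPM in Het CRISPRa; -0.48 ± 0.21), a nuclear protein induced by serum, and the antiproliferative factor Btg2 (-0.44) lay below WT in every Het CRISPRa library. The AP-1 partners Junb (-0.29) and Jund (-0.19) did so as well. Nr4a2, an orphan nuclear receptor and a marker of deep-layer neurons, was the member that lay above, at 41.04, 48.2 and 46.1 CPM in WT and 48.9, 53.5 and 56.2 CPM in Het CRISPRa (0.23 ± 0.13). Npas4, an activity-regulated factor with values of 75.5, 65.7 and 85.7 CPM in WT and 55.6, 63.7 and 70.2 CPM in Het CRISPRa (-0.26 ± 0.12), overlapped. The synaptic scaffold gene Homer1 (0.06) and the nuclear receptor gene Nr4a1 (-0.02) had values near 0, and Nr4a1 was at 187, 179.7 and 311 CPM in the 3 Het CRISPRa libraries, the last above the WT range and the others below it. The TGACGT letters stand in the promoter windows of 5 members with separate groups (Fos, Dusp1, Egr4, Egr2 and Btg2) and 5 whose groups overlapped (Npas4, Nr4a3, Homer1, Bdnf and Per1). They are absent from the windows of Dusp6, Junb, Jund and Nr4a2, which also had separate groups, and of the other members with an entry.

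**Figure D4:**
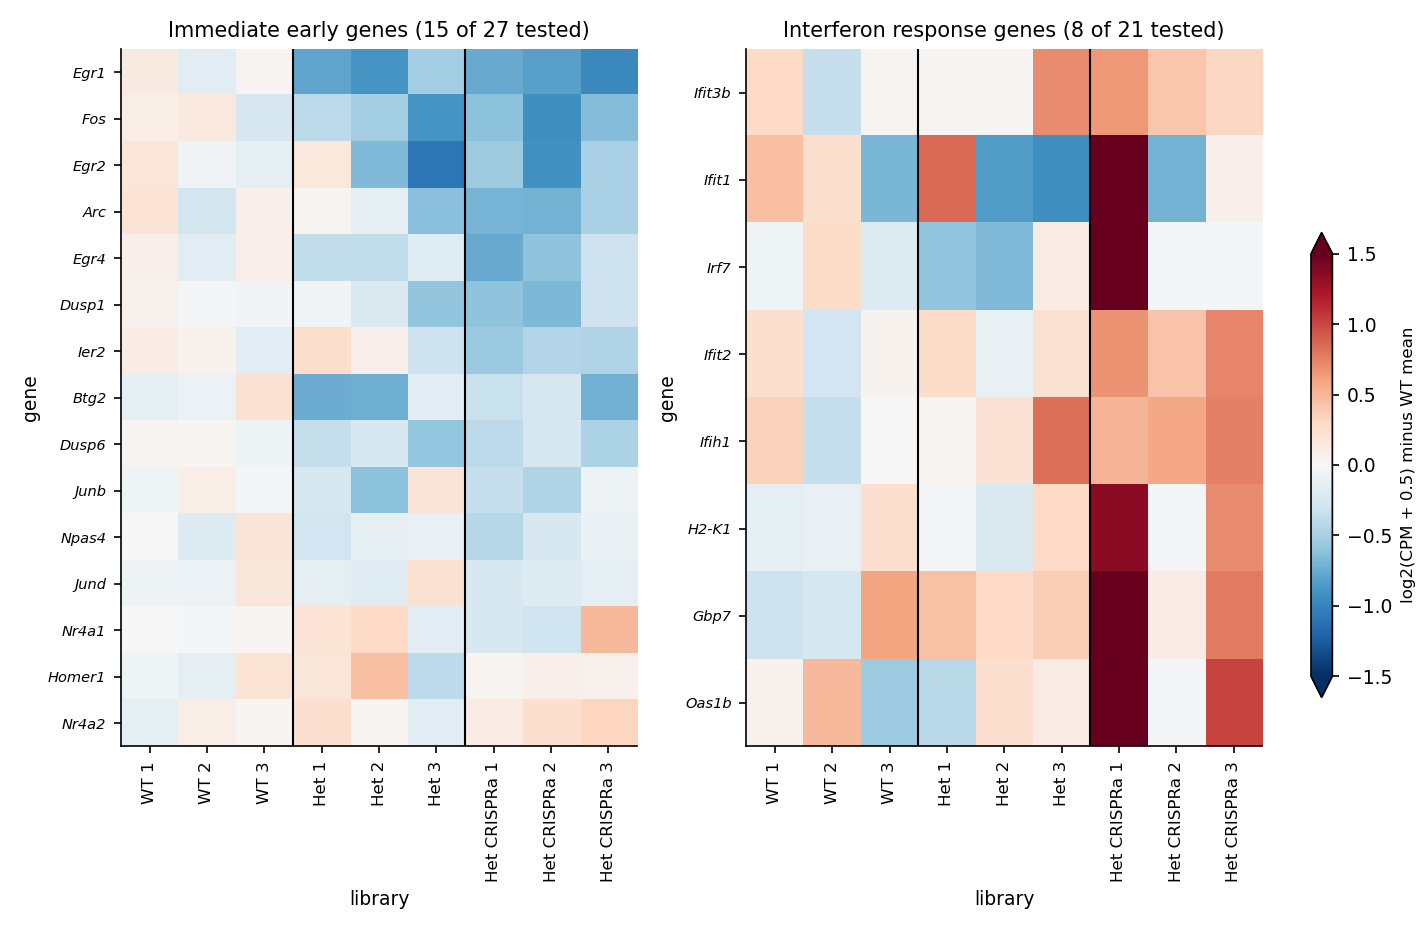
Difference of log2(CPM + 0.5) from the WT mean (colour, limited to 1.5 in each direction) for 15 immediate early genes and 8 interferon response genes described in the text, with genes in rows and the 9 libraries in columns. Egr1, Fos, Arc, Dusp1 and Dusp6 are blue in all 3 Het CRISPRa libraries, and the deepest red interferon cells are in Het CRISPRa library 1.

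Interferon response genes, which cells switch on when they sense viral nucleic acid or interferon, lay mostly above 0, and 1 injected library carried most of the difference. Of 38 listed genes 36 were in the table, 21 were tested and 0 passed limma's adjusted test. Values were above 0 for 20 and below 0 for 1 (Psmb8), with a median of 0.46, 3 higher at an unadjusted p under 0.05 (0.432% of all genes were) and 3 above WT in every library (14.3%, beside 2.68%). Without Het CRISPRa library 1 the median was 0.13, with 16 values above 0, 5 below, and 0 at an unadjusted p under 0.05. Leaving out each of the other 5 libraries gave medians from 0.41 to 0.59, with 3 to 10 members above WT in every library (10 without Het CRISPRa library 2, 7 without WT library 3 and 6 without WT library 2, where 5.53, 11.9 and 5.26% of all genes were).

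Ifit2, which binds viral RNA, was at 1.91, 1.17 and 1.61 CPM in WT and 2.76, 2.23 and 2.9 CPM in Het CRISPRa (0.61 ± 0.25), with every injected library above WT. Ifih1, whose product MDA5 senses double-stranded RNA and which lies near Scn2a, was at 0.716, 0.253 and 0.45 CPM in WT and 0.862, 0.93 and 1.11 CPM in Het CRISPRa (0.62 ± 0.30), also without overlap, and Ifit3b (0.46) was the third member with separate groups. These 3 genes are low, under 3 CPM in every library.

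Other members were high in Het CRISPRa library 1 alone or mainly there. Ifit1 was at 6.15, 0.31 and 0.892 CPM in Het CRISPRa libraries 1 to 3 and 1.31, 1.06 and 0.322 CPM in WT, and its difference was 0.56 ± 0.69 with library 1 and -0.32 without it. Irf7, a master transcription factor of the response, was at 4.48, 0.93 and 0.948 CPM in Het CRISPRa against 0.895, 1.27 and 0.772 CPM in WT (0.57 ± 0.44, and -0.02 without library 1). The antiviral synthetase gene Oas1b was at 4.19, 0.31 and 1.17 CPM in Het CRISPRa against 0.358, 0.659 and 0.0643 CPM in WT (1.17 ± 0.53), and Gbp7, a guanylate-binding GTPase, at 2.7, 0.412 and 0.948 CPM in Het CRISPRa against 0.179, 0.203 and 0.772 CPM in WT (0.93 ± 0.42). The MHC class I gene H2-K1 was at 8.16, 2.85 and 5.03 CPM in Het CRISPRa against 2.56, 2.63 and 3.54 CPM in WT (0.68 ± 0.32). For these 5 genes Het CRISPRa library 2 was within the WT range, or for Ifit1 just under it. Library 1 was also the library with the most sadCas9-VP64 transcript (7.12, 4.09 and 4.4 CPM in libraries 1 to 3), and the part of the injection in these values was not tested. Microglia markers had values above and below 0 and no member with separate groups (12 tested, summed level 33.6 to 48.8 CPM in WT and 38.03 to 44.9 CPM in Het CRISPRa).

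Rnf213, an interferon-inducible ubiquitin ligase that was not in the list, had the smallest p of the higher genes that the naming rule picked. It was at 5.01, 4.21 and 5.15 CPM in WT, 5.28, 5.69 and 5.62 CPM in Het and 19.4, 6.14 and 10.4 CPM in Het CRISPRa. All 3 injected libraries were above all 6 others, and library 1 was the highest again. The difference was 1.10 ± 0.31 (ratio 2.5), which did not pass limma (adjusted p = 1.0). The authors' deposited table gives 1.35 ± 0.32 (SE, adjusted p = 0.0768), also short of its threshold.

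Transcripts encoded by mitochondrial DNA, which are made outside the nucleus and mark cytoplasm carried along with nuclei, lay mostly below WT. Their share of the library was 1.06, 1.23 and 0.773% in WT and 0.733, 0.79 and 0.83% in Het CRISPRa. WT library 3 lay within the Het CRISPRa range, and the other WT libraries lay above it. The means differed by -0.235 percentage points (exact two-sided permutation p = 0.3, smallest possible 0.1), or by -0.358 without WT library 3. Het libraries were at 1.88, 1.41 and 0.892%.

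Of the 13 mitochondrial mRNAs, 12 had values below 0, with a median of -0.42, 2 lower at an unadjusted p under 0.05 (1.33% of all genes were) and 3 below WT in every library (23.1%, beside 4.46%). The count at an unadjusted p under 0.05 was 0 without WT library 1 or Het CRISPRa library 1 (0.854 and 1.68% of all genes were lower). It was 9 without WT library 3, without Het library 1 or with the 6 libraries alone (2.55, 1.7 and 1.86% of all genes). With the replicate block it was 7 (1.81% of all genes). Without WT library 3 the median was -0.62 and 11 of the 13 were below WT in every library (84.6%, beside 15.5%), and without WT library 2 the median was -0.27. Cytochrome b (mt-Cytb) was at 1257, 1437 and 917 CPM in WT and 824, 889 and 907 CPM in Het CRISPRa (-0.44 ± 0.21), and the complex I subunit mt-Nd1 at 979, 1114 and 717 CPM in WT and 634, 705 and 685 CPM in Het CRISPRa (-0.45 ± 0.23). In both, WT library 3 was the lowest WT library and close above Het CRISPRa. The third separate member, mt-Nd3 (16.7, 12.3 and 30.4 CPM in WT against 9.83, 10.6 and 6.96 CPM in Het CRISPRa; -0.996 ± 0.43), shares 98% of its sequence stretches with the nuclear copy Gm28438. mt-Atp8, a subunit of ATP synthase, was at 19.3, 16.9 and 10.8 CPM in WT and 8.96, 11.2 and 10.2 CPM in Het CRISPRa (-0.57 ± 0.20).

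Nuclear genes of the respiratory chain also lay mostly below 0 (21 of 23, median -0.20), and 3 complex I or IV subunit genes were below WT in every library (13%, beside 4.46%). The median ran from -0.29 without WT library 3 to -0.10 without Het CRISPRa library 3. Ndufa13 was at 18.1, 16.4 and 13.8 CPM in WT and 13.2, 10.2 and 10.9 CPM in Het CRISPRa (-0.47 ± 0.17), Ndufa1 differed by -0.60 ± 0.28 and Cox5a by -0.32 ± 0.16. Of 30 ribosomal protein mRNAs 28 had values below 0, with a median of -0.14, or -0.30 without WT library 3 and -0.04 without WT library 1 (8 above 0). Only Rplp1, of the ribosomal stalk, was separate (3.33%, beside 4.46% of all genes). It was at 12.5, 11.8 and 9.84 CPM in WT and 9.02, 8.06 and 6.08 CPM in Het CRISPRa (-0.54 ± 0.22). Without Het CRISPRa library 1, 10 of the 23 respiratory chain genes and 5 of the 30 ribosomal protein genes were below WT in every library (9.73% of all genes were), and without WT library 3, 13 of the 23 respiratory chain genes and 21 of the 30 ribosomal protein genes were (15.5% of all genes). These lists are abundant in cytoplasmic RNA, and their medians lay on the same side of 0 as the mitochondrial difference. Whether that share plays a part in the immediate early gene values was not tested.

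The other sodium channel genes did not differ detectably. None of the 13 tested, Scn2a included, had separate groups or an unadjusted p under 0.05, and their median was -0.06 (4 above 0 and 9 below). Scn8a, which encodes Nav1.6, the other main channel of the axon initial segment in excitatory neurons, was at 755, 792 and 675 CPM in WT and 710.1, 785 and 689 CPM in Het CRISPRa (-0.02 ± 0.09). Scn1a, the main channel gene of parvalbumin interneurons, was at 293, 308 and 374 CPM in WT and 294, 295 and 342 CPM in Het CRISPRa (-0.06 ± 0.10), and Scn3a at 127, 125 and 167 CPM in WT and 145, 164 and 142 CPM in Het CRISPRa (0.11 ± 0.12). Among auxiliary beta subunits the differences were -0.24 ± 0.17 for Scn2b, -0.20 ± 0.24 for Scn3b and -0.43 ± 0.44 for Scn4b, a gene strong in striatum, where WT library 3 was at 99.6 CPM against 37.8 and 41.2 CPM in the other WT libraries. The low genes Scn7a (0.00), Scn9a (-0.02), Scn10a (0.24) and Scn11a (-0.25) had SEs of 0.20 to 0.32. The SEs of Scn1a, Scn3a and Scn8a were 0.09 to 0.12. Without WT library 3, Scn3a (0.25) and Scn9a (0.29) lay above WT in every injected library beside Scn2a (11.9% of all genes did). In that setting 1 of the 13 had an unadjusted p under 0.05.

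Genes around Scn2a on chromosome 2 were compared as possible neighbours of the activated site. Of 15 tested, Ifih1 alone had separate groups (6.67% above WT, beside 2.68% of all genes), and its values are those of the interferon list. The nearest listed neighbours Scn3a (0.11) and Csrnp3 (-0.06 ± 0.15; 35.97, 39.5 and 39.9 CPM in WT and 38.1, 38.3 and 34.1 CPM in Het CRISPRa) overlapped. So did Galnt3 (0.18), Ttc21b (0.01), Scn1a (-0.06), Scn9a (-0.02), Scn7a (0.00), Xirp2 (-0.25), B3galt1 (-0.18), Stk39 (-0.01), Cobll1 (-0.19), Grb14 (-0.03), Fign (-0.58) and Gca (-0.04). The median of the 15 was -0.03.

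Channel, axon and synapse genes gave few separate members, and none passed limma's adjusted test. Of 30 potassium channel genes, 3 were below WT in every library (10%, beside 4.46%). They included Kcna2 (-0.21), of the axon initial segment and juxtaparanode and Kcnd2 (-0.30), the dendritic A-type channel. None of 26 calcium channel and 30 excitatory postsynaptic genes was separate, with medians of 0.03 and 0.02. Without WT library 3, 7 of the 26 lay above WT in every library and 1 below. Of the 30, 5 then lay above and 3 below (11.9% of all genes lay above and 15.5% below). Of 18 axon initial segment genes Cntn1 lay below WT (-0.19) and Sptbn4, the spectrin that holds sodium channels in place, above (0.09), both in every library. Each makes 5.56% of the list, beside 4.46% of all genes below and 2.68% above. Cntnap2, of the neurexin family, was at 21.7, 25.9 and 27.99 CPM in WT and 22.5, 16.9 and 16.3 CPM in Het CRISPRa (-0.44 ± 0.16) and overlapped.

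Of 17 inhibitory synapse genes 14 had values below 0, and the GABA receptor subunit gene Gabrb2 was separate (5.88%, beside 4.46% of all genes). It was at 12.05, 14.04 and 13.3 CPM in WT, 9.19, 7.69 and 12.6 CPM in Het and 9.25, 8.8 and 9.2 CPM in Het CRISPRa (-0.51 ± 0.19). Of 27 presynaptic genes, Slc32a1, Syt1 (-0.18) and the complexin gene Cplx1 (-0.30) lay below WT in every library (4.46% of all genes did) and the syntaxin gene Stx1a above (0.16; 2.68% of all genes did). The calcium sensor gene Syt2 (-0.46 ± 0.18) overlapped. Without WT library 3, 8 of the 27 presynaptic genes lay below WT in every library and 4 above (15.5 and 11.9% of all genes did). Among general neuron markers the neurofilament genes Nefl (29.1, 29.996 and 28.1 CPM in WT against 24.95, 23.4 and 18.7 CPM in Het CRISPRa; -0.38 ± 0.13) and Nefm (-0.35 ± 0.15) lay below WT in every library. The enolase gene Eno2 lay above WT in every library. With Syt1, 3 of the 10 neuron markers were below WT (30%, beside 4.46% of all genes) and 1 was above (10%, beside 2.68%). Of the 14 heat shock genes tested, Hspa8 (-0.37) and Dnajb1 (-0.32) lay below WT in every library (14.3%, beside 4.46% of all genes). Of 32 autism genes the chromatin regulator Adnp lay above WT, at 58.3, 71.2 and 79.7 CPM in WT, 39.9, 59.5 and 67.1 CPM in Het and 83.8, 90.7 and 112 CPM in Het CRISPRa (0.45 ± 0.18). Among the same genes Tbr1 also lay above WT in every library (2 of 32 with Adnp, 6.25%, beside 2.68% of all genes). Foxp2 lay below (3.12%, beside 4.46%). Without WT library 3, 10 of the 32 autism genes lay above WT in every library and 4 below (11.9 and 15.5% of all genes did).

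Markers of inhibitory neurons lay mostly below 0, while those of excitatory neurons lay on both sides. Of 25 inhibitory markers 23 had values below 0, with a median of -0.20 and 4 below WT in every library (16%, beside 4.46%). These were the vesicular GABA transporter gene Slc32a1 (24.1, 26.96 and 32.7 CPM in WT against 22.5, 16.6 and 19.8 CPM in Het CRISPRa; -0.50 ± 0.26), Erbb4 (-0.37), Prox1 (-0.37) and Dlx2 (-0.28). The GABA-synthesising enzyme gene Gad1 overlapped, at 86.8, 86.9 and 110.1 CPM in WT and 93.1, 67.2 and 101 CPM in Het CRISPRa. Het CRISPRa library 2 was the lowest for Slc32a1 and Gad1, and without it the list median was -0.09 with 8 of 25 values above 0. The members below WT in every library were 9 without WT library 3 (36%, beside 15.5% of all genes) and 7 without Het CRISPRa library 1 (28%, beside 9.73%). Of 26 excitatory markers 16 had values above 0, with a median of 0.04, or -0.10 without WT library 3 (12 above 0 and 14 below) and -0.01 without Het CRISPRa library 2. In every library 3 markers, Tbr1 (0.11) and Nr4a2 among them, lay above WT (11.5%, beside 2.68% of all genes). Foxp2 (-0.44), Bcl11b and Cdh13 lay below (11.5%, beside 4.46%). In bulk nuclei, fewer cells of a type and less RNA per cell cannot be told apart.

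Neuropeptide genes shared the direction of the inhibitory markers, with which the list overlaps. Of 18 tested, 17 had values below 0, with a median of -0.27, and 2 were below WT in every library (11.1%, beside 4.46%). Neurotensin (Nts) was at 1.97, 2.13 and 2.7 CPM in WT and 0.804, 1.36 and 0.892 CPM in Het CRISPRa (-0.87 ± 0.42), and gastrin-releasing peptide (Grp) differed by -0.25 ± 0.22. Somatostatin (Sst) was at 147, 137 and 80.6 CPM in WT and 107, 78.5 and 94.99 CPM in Het CRISPRa (-0.34 ± 0.20), Npy differed by -0.38 ± 0.20, Pdyn by -0.47 ± 0.24 and the granin gene Scg2 by -0.28 ± 0.13, all with overlapping groups. In Sst and Npy, WT library 3 was the lowest WT library, and without it 9 of the 18 genes were below WT in every library (15.5% of all genes were). Without WT library 1 or Het CRISPRa library 1 there were 5 (beside 8.3 and 9.73% of all genes).

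Markers of hippocampus and thalamus, used to see how the dissections differed, had 16 of 18 values below 0, a median of -0.37 and 6 members below WT in every library (33.3%, beside 4.46%). C1ql2, a synaptic organiser of dentate granule cells, was at 10.1, 11.9 and 10.4 CPM in WT, 6.995, 4.78 and 8.56 CPM in Het and 7.24, 6.08 and 5.02 CPM in Het CRISPRa (-0.78 ± 0.22). Zbtb20, a transcription factor of hippocampal neurons and glia, was at 95.6, 109 and 135 CPM in WT, 49.1, 78.5 and 121 CPM in Het and 85.6, 74.4 and 63.2 CPM in Het CRISPRa (-0.60 ± 0.25). The granule cell markers Prox1 (-0.37) and Dsp (-0.46) and the CA field markers Spink8 (-0.74) and Iyd (-0.36) made up the rest. Prox1 is also in the list of inhibitory markers and is counted in both. The summed level of the 20 listed genes was 276 to 353 CPM in WT and 226 to 269 CPM in Het CRISPRa, without overlap, and the thalamic genes Gbx2 and Shox2 were too low to test. Immediate early genes are strongly expressed in hippocampus as well, and the part of these markers in the Egr1, Fos and Arc values was not tested. With all libraries, striatal markers overlapped except Ido1 (5% above WT, beside 2.68% of all genes), with a median of -0.05. Without WT library 3 the median was 0.26 and 19 of the 20 values were above 0. In that setting 8 of the 20 lay above WT in every library (11.9% of all genes did).

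**Figure D5:**
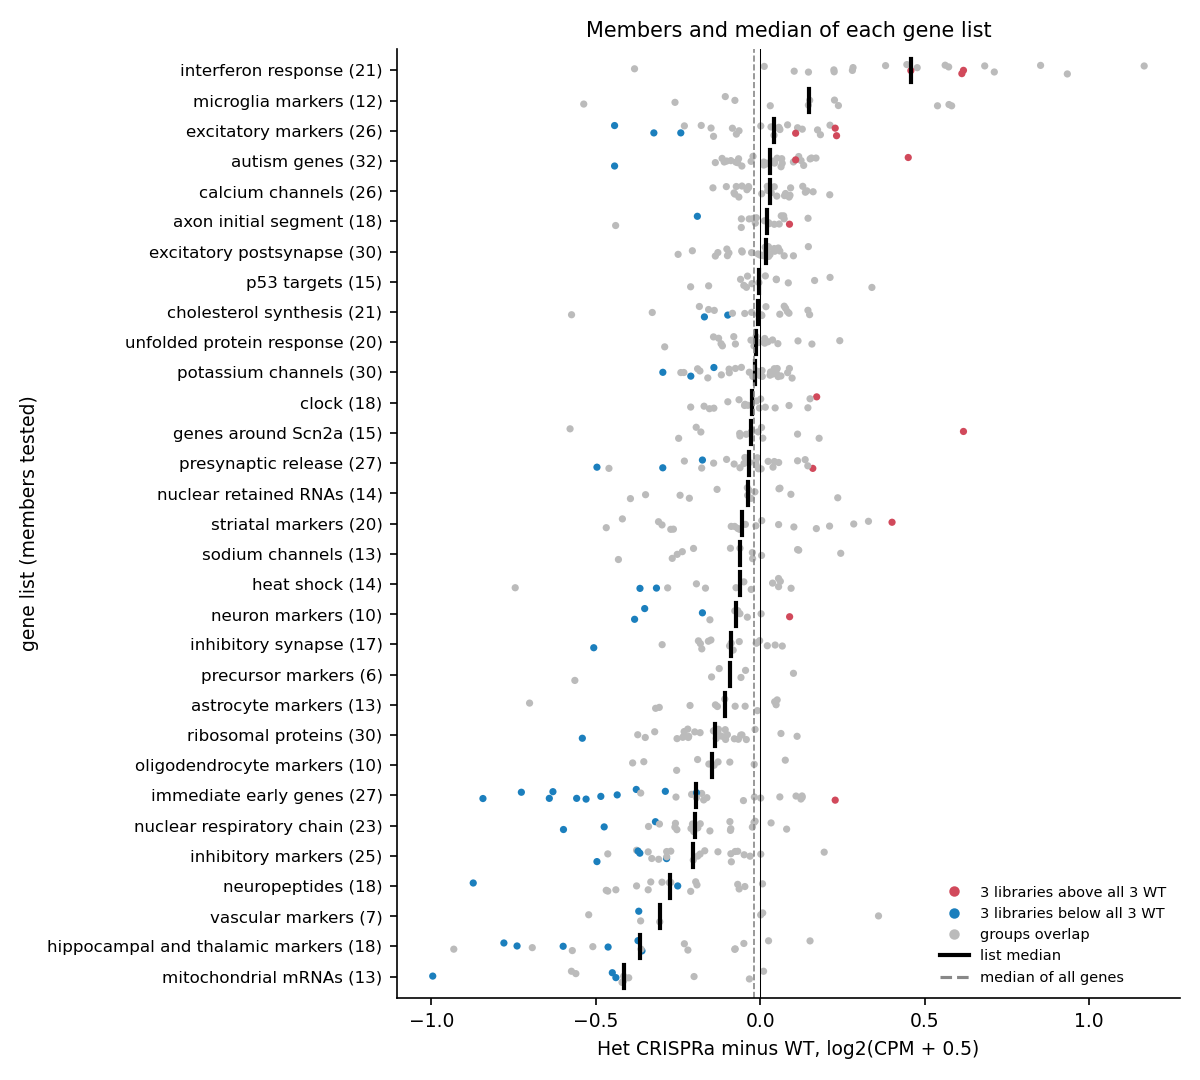
Difference between Het CRISPRa and WT in log2(CPM + 0.5) (horizontal axis) for each tested member (dots) of 31 gene lists (rows, number tested in brackets), with the list median as a black bar and the median of all genes as a dashed line. Red and blue dots are members whose 3 Het CRISPRa libraries all lie above or below WT, and the lists run from a median of 0.46 (interferon response) to -0.42 (mitochondrial mRNAs).

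By the naming rule, 10 genes were picked in each direction by their limma p among those with separate groups, a mean of at least 2 CPM and a named symbol, and none of the 20 passed the adjusted test. The lower ones were Egr1, Fos, Arc, C1ql2 and Dusp1 with App, Itpr3, Orai2, Pcdhgc5 and Rgmb. App, the amyloid precursor protein gene, was the most abundant of them, at 301, 352 and 336 CPM in WT, 312, 290.1 and 283 CPM in Het and 278, 257 and 249 CPM in Het CRISPRa, and its difference of -0.33 ± 0.09 is a ratio of 0.793. Itpr3 and Orai2 both encode calcium channels that serve intracellular stores. Itpr3, an inositol trisphosphate receptor, was at 4.29, 4.36 and 4.25 CPM in WT and 2.13, 2.6 and 2.34 CPM in Het CRISPRa (-0.75 ± 0.21), and Orai2, a store-operated channel of the cell surface, at 68.3, 67.3 and 63.5 CPM in WT and 56.8, 47.1 and 49.2 CPM in Het CRISPRa (-0.38 ± 0.11). The protocadherin gene Pcdhgc5 differed by -0.58 ± 0.17, and its exons overlap those of its gene cluster, so its level depends on how shared reads were divided. Rgmb, a co-receptor of bone morphogenetic proteins, was at 24.9, 25.7 and 27.3 CPM in WT, 16.8, 16.2 and 19.997 CPM in Het and 20.3, 20.5 and 15.999 CPM in Het CRISPRa (-0.45 ± 0.14), below WT in all 6 heterozygous libraries.

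The higher ones were Rnf213, Il11ra3, Impg2, Col24a1, L3mbtl3, Pcdh15, Sft2d2, Cad, Parp3 and Rmdn2. Impg2, a proteoglycan gene best known in the retina, was at 5.67, 6.18 and 7.72 CPM in WT, 5.16, 5.33 and 5.52 CPM in Het and 10.3, 10.4 and 9.53 CPM in Het CRISPRa (0.60 ± 0.18), with the injected libraries above all 6 others. The collagen gene Col24a1 was at 70.8, 55.3 and 61.6 CPM in WT, 69.8, 66.01 and 63.4 CPM in Het and 76.8, 76.998 and 86.7 CPM in Het CRISPRa (0.36 ± 0.11), and likewise lay above all 6 others. Pcdh15, a cadherin of hair-cell tip links, was at 82.7, 86.2 and 78.9 CPM in WT and 102, 104 and 95.2 CPM in Het CRISPRa (0.28 ± 0.10). L3mbtl3, a reader of methylated histones, differed by 0.40 ± 0.13, Cad, the multienzyme protein that starts pyrimidine synthesis, by 0.35 ± 0.14, Sft2d2 by 0.47 ± 0.18, Parp3, a DNA repair enzyme, by 0.53 ± 0.21, and Rmdn2 by 0.58 ± 0.23.

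Lists of stress, nuclear and metabolic genes had medians close to that of all genes. None of the p53 targets, unfolded protein response genes or nuclear retained RNAs had separate groups. The medians of these lists were -0.004, -0.01 and -0.04. Without WT library 3, 5 of the 14 nuclear retained RNAs lay below WT in every library and 2 above (15.5 and 11.9% of all genes did). Cholesterol synthesis had 2 separate members below WT (Cyp51 and Acaca, 9.52% of 21 tested, beside 4.46% of all genes). Clock genes had 1 above (Bmal1, 5.56% of 18 tested, beside 2.68%). The medians of these 2 lists were -0.01 and -0.02. No marker of astrocytes (13 tested), oligodendrocytes (10), their precursors (6) or microglia (12) was separate. Of 7 vascular markers 1, Pecam1, was below WT in every library (14.3%, beside 4.46% of all genes). The summed astrocyte markers were 352 to 373 CPM in WT and 346 to 368 CPM in Het CRISPRa, and those of oligodendrocytes 108 to 128 and 104 to 115 CPM. Xist was at 3209 to 4066 CPM in all 9 libraries and Uty at most at 0.0557 CPM, so no library stood apart in these sex-linked transcripts.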

How the data were processed

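PolyA RNA of NeuN-sorted mouse cortical nuclei was measured in 9 libraries, 3 per group by the labels. DESeq2 1.44, STAR 2.7.8a, featureCounts, R 4.4 and the builds mm39 and GRCm39 are listed, without roles, per the submitters' processing notes. Per the file headers, the authors deposited CPM for 39008 features, and a DESeq2 comparison table with log2 fold changes, p-values and adjusted p-values. The authors' log2 values, SEs and p-values were used only where named. The most frequent low value was taken as 1 read, giving 15.5 to 20.1 M reads, and 79.9 to 82.4% of the CPM values were within 0.01 of whole reads, so no count test was run.

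Differences come from limma 3.58.1 in R 4.3.3 (lmFit, eBayes with trend) on log2(CPM + 0.5), which understates changes of low genes. All 9 libraries were fitted without a replicate block, and the test covered the 18967 genes that reached 0.5 CPM in 3 or more libraries, transgenes left out. Adjustment (Benjamini-Hochberg, threshold 0.05) ran over all 18967. The code was tested on simulated data. Permutation tests were exact and two-sided on CPM or percent, and 95% confidence intervals are those of the limma fit. Shared sequence was counted over 50-base stretches of GENCODE M21 transcripts. Plots used Python 3.11.15 with matplotlib 3.10.9.

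Genes named are Scn2a, tested sodium channels and genes around Scn2a, the transgenes, the members of each other list with the smallest p (4 at most), the 10 per direction described in the text, and the authors' 5 per direction. Members, lists and tests were chosen with earlier results of these data known, and other members named for separate groups or set beside these (Rbfox3, Slc17a7, Gad1, Ifit1, Irf7, Homer1, Nr4a1, copies) were picked after their values were seen. Some list members are not reported here by name. Other pseudocounts, filters, scalings and models, and each library left out, were tried.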

Additional observations from a re-analysis of the deposited data

How the results depend on the processing

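The count of 1 gene past the threshold (Gm3020) was 1 with a pseudocount of 1, with no filter, with either other scaling, with the 6 libraries alone, with eBayes without trend and without Het replicate 1 (added after seeing the data). It was 0 with a pseudocount of 0.1, with a filter of 1 CPM in 6 libraries (where Gm3020 was not tested), and with Gm3020 and Gm10409 summed. Leaving out each WT or Het CRISPRa replicate gave 0 to 0, with 194 (without WT replicate 2) to 706 (without WT replicate 3) genes at an unadjusted p under 0.05, and no filter gave 1197. Deviations from the group means were correlated across genes, and gave 0.109, -0.065 and -0.11 for same-numbered WT and Het CRISPRa libraries. Pairs with unlike numbers ran from -0.244 to 0.243. The same-numbered values thus did not stand out, but with 3 libraries per group they cannot decide whether the numbers pair the samples. The replicate block gave 0 called genes (474 at an unadjusted p under 0.05). The cause of these changes was not tested. Scn2a stayed within 0.06 to 0.16 and never passed, and the mitochondrial share lay between -0.358 and -0.131 percentage points with a library left out. Of 1666 recomputed values of 105 genes, 1627 kept their direction and side of the threshold, 8 (all Gm3020) no longer passed, and 31 of 16 genes changed sign.

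Sign changes with a library left out gave ranges of -0.13 to 0.043 for Scn1a, -0.11 to 0.15 for Scn7a, -0.089 to 0.027 for Scn8a, -0.24 to 0.29 for Scn9a, -0.020 to 0.40 for Scn10a, -0.35 to 0.049 for Scn3b, -0.68 to 0.010 for Scn4b, -0.49 to 0.20 for Cobll1, -0.092 to 0.025 for Gca, -0.31 to 0.15 for Grb14, -0.062 to 0.068 for Ttc21b, -0.22 to 0.13 for Stk39, -0.012 to 0.16 for Homer1, -0.27 to 0.12 for Nr4a1, -0.025 to 0.88 for Irf7 and -0.32 to 1.20 for Ifit1. Under quantile scaling Scn9a was 0.024 and Stk39 0.015, and under median-of-ratios scaling Stk39 was 0.016 and Nr4a1 0.0044. With 3 libraries per group and 1 read worth 0.0507 to 0.0643 CPM, differences in genes below a few CPM are poorly bounded.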

Other observations

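Features listed at 0 in every library of a group and at 3 or more reads in every library of the other were few, and several have near-identical copies. Outside the pairs already described, Tfap2d, a transcription factor gene of the AP-2 family, was listed at 0 in WT and at 0.345, 0.496 and 0.39 CPM in Het CRISPRa, and it was also above 0 in Het libraries 2 and 3. Ticrr, a regulator of DNA replication, was listed at 0 in WT and at 0.23, 0.186 and 0.39 CPM in Het CRISPRa. In the other direction Rps18-ps3, a ribosomal protein pseudogene that shares 81.1% of its 50-base stretches with other genes, was at 0.69, 0.193 and 0.216 CPM in WT and listed at 0 in Het CRISPRa. In all, this rule gave 3 features at 0 in WT and 5 at 0 in Het CRISPRa, with the transgenes left out. The corresponding counts were 1 and 14 for WT and Het, and 3 and 19 for Het CRISPRa and Het, with the larger count in each pair for features at 0 in Het.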
